A study of Homo sapiens with 8 samples.

Results

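The expression of 10 keratin genes was followed in CAPAN-2, an established cell line from a human pancreatic adenocarcinoma: the simple epithelial keratins KRT7, KRT8, KRT18 and KRT19, the basal and stress-associated keratins KRT15 and KRT17, the type II keratin KRT80, and the hair keratins KRT81, KRT83 and KRT86. Every array probe named as one of these 10 genes was taken, through its transcript accession or, for KRT86, through the study's lists of changed genes. This gave 14 probes of 41000 on the array, where 17297 gene symbols were represented. The set was chosen by the measured log2 ratios of KRT81 and KRT86, which had been seen to move in opposite directions in the 2 experiments. The values of KRT81 and KRT86 are therefore given as a description with no test, and so are those of KRT83, their close relative. The other 7 genes were tested.

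Keratins are the intermediate filament proteins of epithelial cells, and each filament is built from pairs of 1 acidic type I and 1 basic type II chain. Simple epithelia such as pancreatic ducts are characterised by KRT8 and KRT7 (type II) with KRT18 and KRT19 (type I), and these proteins are widely used to recognise ductal adenocarcinoma. Hair keratins form the hard filaments of the hair shaft, where keratin-associated proteins cross-link them, and are not typical of ducts.

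In the ErbB2-KD cells a puromycin-selected plasmid encoding a short hairpin RNA against ErbB2 had been stably transfected, and the NT control clones carried the empty vector. The MUC4-KD cells had been infected with a retroviral vector holding a sequence against MUC4, and the Mock control clones carried its empty form under G418 selection. Each of 4 arrays per experiment compared the RNA of 1 knockdown clone with the pooled RNA of 4 control clones in the other colour, NT or Mock (the labels name no clone for MUC4-KD, and the methods give 4). The pool counted as 1 control sample, so that no test contained the spread between control clones. The labelled knockdown was in Cy5 on arrays 1 and 2 of ErbB2-KD and 3 and 4 of MUC4-KD, and in Cy3 on the others, and these dyes set the direction of each ratio, from control to labelled knockdown.

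The arrays lay on 3 slides that each held both experiments (ErbB2-KD 1 and 3 with MUC4-KD 2, ErbB2-KD 2 with MUC4-KD 4, and ErbB2-KD 4 with MUC4-KD 1 and 3). Between 56.7% and 74.2% of probes were well above background, and no spot was saturated. Over all probes the ratios of ErbB2-KD arrays correlated with each other at r = 0.20 to 0.70, and those of MUC4-KD arrays at 0.32 to 0.82. MUC4-KD array 4 correlated with the other MUC4-KD arrays at only 0.32 to 0.51. ERBB2 was lower in ErbB2-KD on 4 of 4 arrays with its brighter probe (-0.40 ± 0.12, SD, n = 4, limma adjusted p = 0.145), while its other probe gave 0.04. MUC4, in contrast, was higher in the RNA labelled MUC4-KD with all 4 of its probes (means of 0.27, 0.41, 1.34 and 1.84, of which 1.34 and 1.84 passed the test), which goes against the label. The study lists the changes of this experiment in the opposite direction from the one the dye labels give. Every MUC4-KD ratio below sets the RNA labelled MUC4-KD over that labelled Mock, and its direction depends on these labels. Which signals are given for MUC4-KD and which for Mock depends on these labels, too.

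The ductal markers EPCAM, CDH1, MUC1, TFF1 and CLDN4 were well above background on every array in all 4 RNAs, whereas CFTR and CEACAM6 were on none. KRT7, KRT8, KRT18 and KRT19 were also well above background in both RNAs of every array. Of the acinar markers, CPB1, CTRB1 and PNLIP were well above background on none, while REG1A was on 4 of 4 arrays in Mock and 3 of 4 in MUC4-KD. Of the endocrine markers, CHGA was well above background on every array in all 4 RNAs, and GCG and NEUROD1 on none. In such bulk RNA, fewer cells of a type and less RNA per cell cannot be told apart.

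The hair keratins had the largest mean ratios of the 10 genes by their brightest probes, and they were higher in ErbB2-KD than in NT and lower in labelled MUC4-KD than in Mock. KRT81, a type II hair keratin of the hair cortex, had log2 ratios of 3.46, 3.09, 3.34 and 1.95 on the 4 ErbB2-KD arrays, a mean of 2.96 ± 0.69 (SD, n = 4) or 7.78-fold. On the MUC4-KD arrays the same probe gave -2.42, -3.63, -2.66 and -3.47, a mean of -3.04 ± 0.60 (SD, n = 4) or 8.25-fold lower. All 4 arrays of each experiment lay on the same side of 0.

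KRT86, another type II hair keratin, followed KRT81. Its ratios in ErbB2-KD were 2.46, 2.82, 3.21 and 1.32, with a mean of 2.45 ± 0.82 (SD, n = 4) or 5.47-fold. In MUC4-KD they were -3.05, -2.47, -3.54 and -2.78, with a mean of -2.96 ± 0.45 (SD, n = 4) or 7.78-fold lower. ErbB2-KD array 4 was the lowest of its experiment for each of the 3 hair keratins.

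KRT83, the third of these hair keratins, moved in the same directions by less. Its ratios were 1.08, 0.91, 1.71 and 0.37 in ErbB2-KD (1.02 ± 0.55, SD, n = 4), where the NT pool was well above background on 2 of 4 arrays. They were -1.58, -2.60, -1.96 and -0.92 in MUC4-KD (-1.77 ± 0.70, SD, n = 4), or 3.40-fold lower. The size for KRT83 depended on the background correction: with the log ratios of Feature Extraction it was 2.54 in ErbB2-KD and -3.26 in MUC4-KD.

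**Figure D1:**
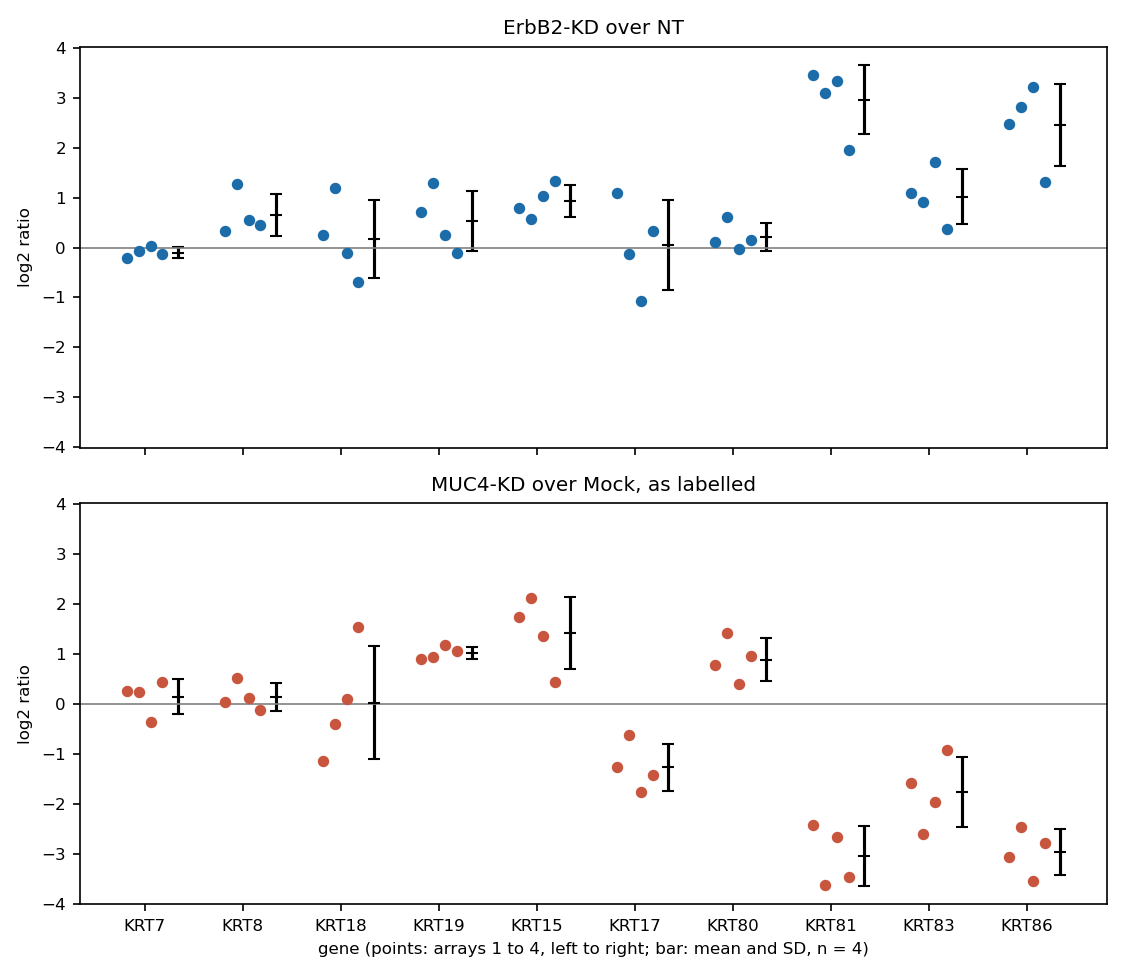
Log2 ratio of labelled knockdown over control for the brightest probe of each of the 10 keratins, in ErbB2-KD over NT (upper panel) and labelled MUC4-KD over Mock (lower panel); points are arrays 1 to 4 and bars are the mean and SD (n = 4). KRT81, KRT83 and KRT86 lie above 0 on every ErbB2-KD array and below 0 on every MUC4-KD array, and KRT19, KRT15 and KRT80 lie above 0 and KRT17 below 0 on every MUC4-KD array.

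Over the 8 arrays the ratios of KRT81 and KRT86 correlated at r = 0.97, those of KRT81 and KRT83 at 0.95 and those of KRT83 and KRT86 at 0.94. These r values mostly reflect the 2 experiments' opposite means and are given as a description. In the GRCh38.p14 annotation the 3 genes are consecutive on chromosome 12, and the annotated intervals of KRT81 and KRT86 overlap. The 3 sequences are closely related, so that part of one probe's signal could come from another gene, which was not tested.

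The signals of each RNA were then compared within a probe, on the scale of the log2 normalized signal after normalization between arrays. For KRT81 the NT pool gave 8.91, 10.44, 9.08 and 8.92 (9.34 ± 0.74, SD, n = 4), the MUC4-KD RNA 10.76, 11.33, 10.84 and 12.38 (11.33 ± 0.75), the ErbB2-KD RNA 12.37, 13.53, 12.42 and 10.88 (12.30 ± 1.09) and the Mock pool 13.18, 14.96, 13.50 and 15.85 (14.37 ± 1.25). NT was below each of the other RNAs without overlap, while MUC4-KD overlapped with ErbB2-KD, and ErbB2-KD with Mock. The 4 values of a pool are readings of 1 RNA on 4 arrays, so their SD is technical.

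As labelled, the 2 control pools thus differed from each other, too. Mock was above NT by 5.03 for KRT81, by 2.75 for KRT86 and by 2.10 for KRT83 in mean log2 signal. This exceeds the mean knockdown ratio of either experiment for KRT81 and KRT83, and that of ErbB2-KD for KRT86. Had the MUC4-KD labels been crossed, the gap to NT would be 1.99 for KRT81, -0.21 for KRT86 and 0.33 for KRT83. KRT86 formed a pair of high RNAs (ErbB2-KD at 11.66 ± 0.79 and Mock at 11.96 ± 0.34, SD, n = 4) and a pair of low RNAs (NT at 9.20 ± 0.07 and MUC4-KD at 9.00 ± 0.24). Within each pair the ranges overlapped, and between the pairs they did not.

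KRT83 had its lowest mean signal in NT (7.19 ± 0.25) and its highest in Mock (9.28 ± 0.62). MUC4-KD (7.52 ± 0.19) and ErbB2-KD (8.20 ± 0.44) lay between and overlapped with each other. These pool differences are between arrays, for which no RNA was shared. Vector, selection agent, pool and a possible crossing of the MUC4-KD labels cannot be told apart.

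**Figure D2:**
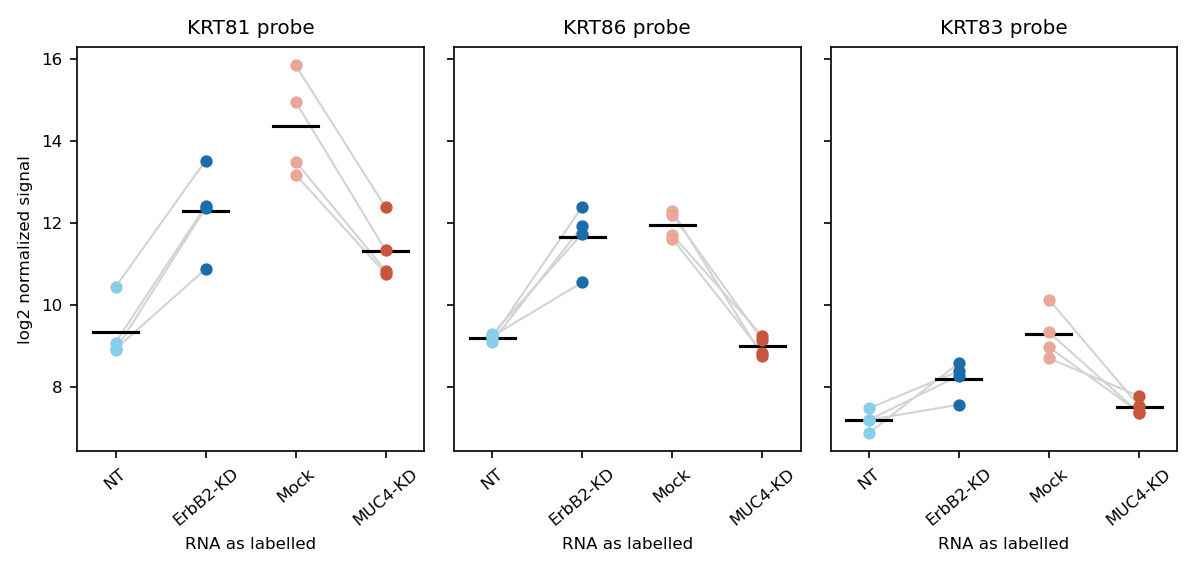
Log2 normalized signal of the KRT81, KRT86 and KRT83 probes in the NT, ErbB2-KD, Mock and labelled MUC4-KD RNA; points are arrays, grey lines join both RNAs of 1 array, and black bars are means (n = 4). KRT86 is at 9.20 in NT and 9.00 in MUC4-KD but at 11.66 in ErbB2-KD and 11.96 in Mock; signals are comparable within a panel only.

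The difference between the experiments, labelled MUC4-KD ratio minus ErbB2-KD ratio, was -6.00 for KRT81, -5.41 for KRT86 and -2.78 for KRT83. Within the 3 slides it was -7.03, -6.56 and -4.49 for KRT81, -5.31, -5.60 and -4.61 for KRT86 and -3.99, -1.83 and -2.14 for KRT83. The sign was the same on each slide. Had the MUC4-KD labels been crossed, the 3 genes would be higher in both knockdowns, and the differences would be 0.09, 0.51 and 0.75.

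The genes whose ratios over the 8 arrays as labelled were most like those of KRT81 were then listed, by the root mean square difference over 17107 probes (median of all probes 3.07). ITGB7, an integrin beta chain of lymphocytes, was the nearest, with a difference of 0.67, r = 0.998, a mean of 2.38 ± 0.37 in ErbB2-KD and -2.38 ± 0.50 in MUC4-KD (SD, n = 4). It was nearer to KRT81 than KRT86 was (0.75). The next were THBS1, which encodes the matrix protein thrombospondin-1 (1.53), the sialyltransferase gene ST6GALNAC5 (1.54), a probe of the keratin-associated protein gene KRTAP2-4 (1.56) and HBE1, embryonic epsilon globin (1.57), all nearer than KRT83 was (1.74). Their r with KRT81 was 0.861 to 0.918, however, against 0.945 for KRT83. ErbB2-KD ratios scattered widely for THBS1 (1.86 to 5.93), KRTAP2-4 (0.52 to 5.10) and HBE1 (-0.04 to 3.31). The KRTAP2-4 probe was named through the study's lists of changed genes. Those lists came from these same arrays, which favoured its place here.

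ITGB7 lies on chromosome 12 beyond KRT18, with 7 protein-coding genes between them. In the order from KRT80 to ITGB7, KRT86, KRT81 and KRT83 were numbers 3, 4 and 5, and ITGB7 was number 35. Of the 35 protein-coding genes from KRT80 to ITGB7, 11 apart from KRT81, KRT83, KRT86 and ITGB7 were tested in ErbB2-KD and 12 in MUC4-KD. In ErbB2-KD the median ratio of these was 0.17 and none passed the limma test (adjusted p under 0.05), while 2 had an unadjusted p under 0.05. Among all probes tested there, 1.43% passed. In MUC4-KD the median was 0.05, and KRT80 and IGFBP6 passed, where 20.5% of all probes did. IGFBP6, a binding protein of insulin-like growth factors, was at 1.36 in MUC4-KD (limma adjusted p = 0.0151). It was at 1.695 in ErbB2-KD (adjusted p = 0.0819). KRT85, a further hair keratin and the next gene after KRT83, was at -0.03 in ErbB2-KD and -0.09 in MUC4-KD (limma adjusted p = 0.929 and 0.519). It was well above background on 3 of 4 arrays in NT and in labelled MUC4-KD. Its small ratios may thus reflect a dim probe, which was not tested.

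**Figure D3:**
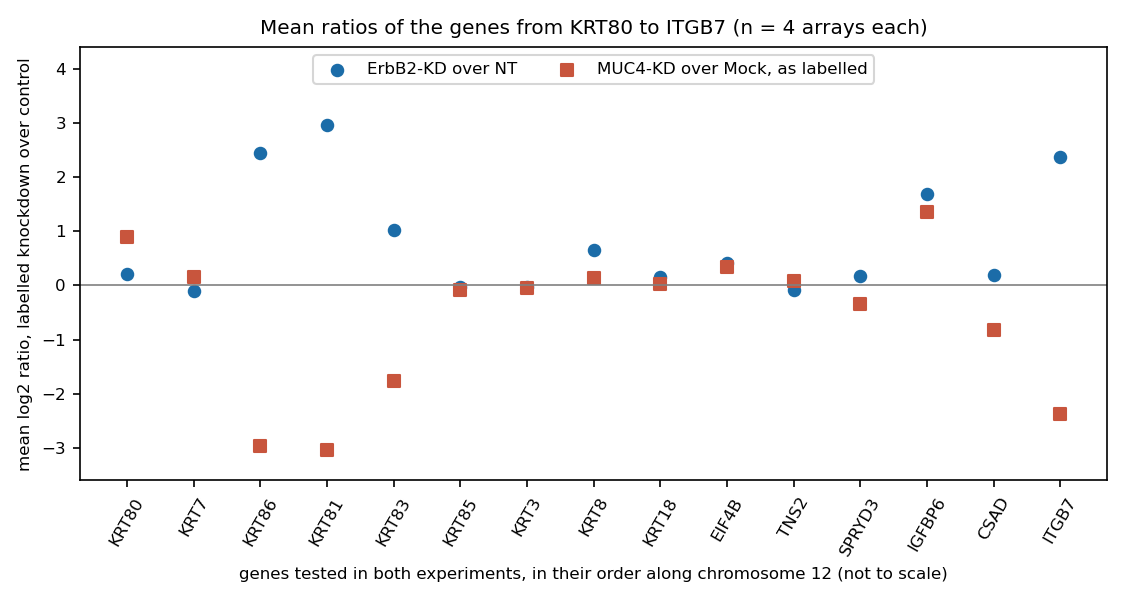
Mean log2 ratio (n = 4 arrays) in ErbB2-KD over NT and labelled MUC4-KD over Mock of the genes tested in both experiments, from KRT80 to ITGB7 in their order along chromosome 12, not to scale. KRT86, KRT81, KRT83 and ITGB7 lie on opposite sides of 0 by 1.02 or more, and KRT85 is at -0.03 and -0.09. KRT85 was well above background on 3 of 4 arrays in NT and in labelled MUC4-KD.

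Of the 7 keratins that were tested, none passed in ErbB2-KD and 4 passed in labelled MUC4-KD, where KRT19, KRT15 and KRT80 rose and KRT17 fell. In ErbB2-KD, 1.43% of all 23869 probes tested passed limma at an adjusted p under 0.05 (0.549% higher and 0.884% lower). There, 2 of the 7 keratins (KRT15 and KRT8) had an unadjusted p under 0.05, and the methods' t-test called 0 of them after Benjamini-Hochberg adjustment and 1 before. Over all ErbB2-KD probes the methods' t-test gave 0 calls after adjustment and 3176 before. In MUC4-KD, 20.5% of all 25047 probes passed (12% higher and 8.48% lower), so that calls were frequent in that experiment among all genes. The methods' t-test called 0 of the 7 keratins there after adjustment, and 106 of all probes. With median centring in place of loess, limma called 0 of the 7 and 1 of all probes.

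KRT19, the smallest type I keratin and a marker of ductal cells, was at 0.90, 0.95, 1.17 and 1.05 in MUC4-KD, the tightest values of any member in that experiment. The mean was 1.02 ± 0.12 (SD, n = 4), or 2.03-fold, with a limma adjusted p of 0.00585. In ErbB2-KD its ratios were 0.70, 1.29, 0.24 and -0.12 (0.53 ± 0.61, SD, n = 4, limma adjusted p = 0.312), spread over both sides of 0.

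KRT15, a type I keratin of basal cells and hair follicle stem cells, was higher in the labelled knockdown on all 8 arrays. The ratios were 1.75, 2.13, 1.36 and 0.45 in MUC4-KD (1.42 ± 0.72, SD, n = 4, 2.68-fold, limma adjusted p = 0.0231). They were 0.79, 0.57, 1.03 and 1.33 in ErbB2-KD (0.93 ± 0.33, SD, n = 4, 1.91-fold, limma adjusted p = 0.0536), just short of the threshold. KRT15 passed there in 1 of 11 alternatives, a normexp offset of 10 (limma adjusted p = 0.0481). Its adjusted p in the alternatives reached 0.3035, with the methods' t-test. Of the 4 fits that left out an array, KRT15 passed in 1, without array 2 (limma adjusted p = 0.0409). The adjusted p of these fits reached 0.2499, without array 3.

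KRT80, a type II keratin linked to differentiating epithelia, had 2 probes, which differed in size. The brighter one gave 0.77, 1.42, 0.39 and 0.96 in MUC4-KD (0.89 ± 0.43, SD, n = 4, 1.85-fold, limma adjusted p = 0.0263) and 0.11, 0.61, -0.03 and 0.15 in ErbB2-KD (0.21 ± 0.28, adjusted p = 0.499). The dimmer one gave 2.51, 2.91, 2.29 and 0.58 in MUC4-KD (2.07 ± 1.03, SD, n = 4, 4.21-fold, limma adjusted p = 0.0203), and -0.03 ± 0.19 in ErbB2-KD (adjusted p = 0.930). Both probes were above 0 on all 4 MUC4-KD arrays, and array 4 stood lowest for the dimmer one.

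KRT17, a type I keratin that is induced in activated and regenerating epithelia, was the tested member that fell. Its ratios in MUC4-KD were -1.27, -0.63, -1.76 and -1.41 (-1.27 ± 0.47, SD, n = 4, 2.41-fold lower, limma adjusted p = 0.0135). In ErbB2-KD they were 1.09, -0.13, -1.08 and 0.32 (0.05 ± 0.90, SD, n = 4, limma adjusted p = 0.960), so that the clones differed from each other more than their mean differed from NT. The Mock pool had the highest mean signal (12.70 ± 0.52), against 11.42 ± 0.22 in NT and 11.43 ± 0.34 in MUC4-KD.

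The 4 calls in MUC4-KD were kept without array 4, the array that stood apart, with adjusted p of 0.00352 for KRT19, 0.00243 for KRT15, 0.0120 for KRT17 and 0.0272 for KRT80. Without array 1 only KRT19 passed, without array 2 KRT19 and KRT17, and without array 3 none (limma, all 4 with an unadjusted p under 0.05), while the directions did not change. With median centring in place of loess, and with the methods' t-test after adjustment, 0 of the 7 passed in MUC4-KD (1 and 4 at an unadjusted p under 0.05), and KRT19 had an adjusted p of 0.676 with median centring.

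KRT17 shares much of its sequence with KRT14 and KRT16, keratins of basal and of stressed epidermis, and the probes of the 3 genes were compared array by array. The KRT17 probe and KRT14 probe A_24_P265346 differed by a root mean square of 0.16 over the 8 arrays (r = 0.994), and KRT17 and KRT16 probe A_24_P392991 by 0.25 (r = 0.963). The other KRT14 probe, A_23_P4335, did not follow KRT17 (r = 0.088) and lay between -0.33 and 0.49 on all arrays. The values of KRT14, KRT16 and KRT17 are therefore uncertain as to the gene they come from.

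In MUC4-KD, KRT14 was at -1.10 ± 0.40 by its brighter probe (SD, n = 4, limma adjusted p = 0.0145) and at 0.09 ± 0.36 by the other (adjusted p = 0.717). Both KRT16 probes passed, at -1.23 ± 0.49 and -1.20 ± 0.59 (adjusted p = 0.0160 and 0.0236). In ErbB2-KD the brighter probes of KRT14 and KRT16 were at 0.08 ± 0.83 and 0.10 ± 0.89 (adjusted p = 0.927 and 0.914), with the same scatter among clones as KRT17.

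**Figure D4:**
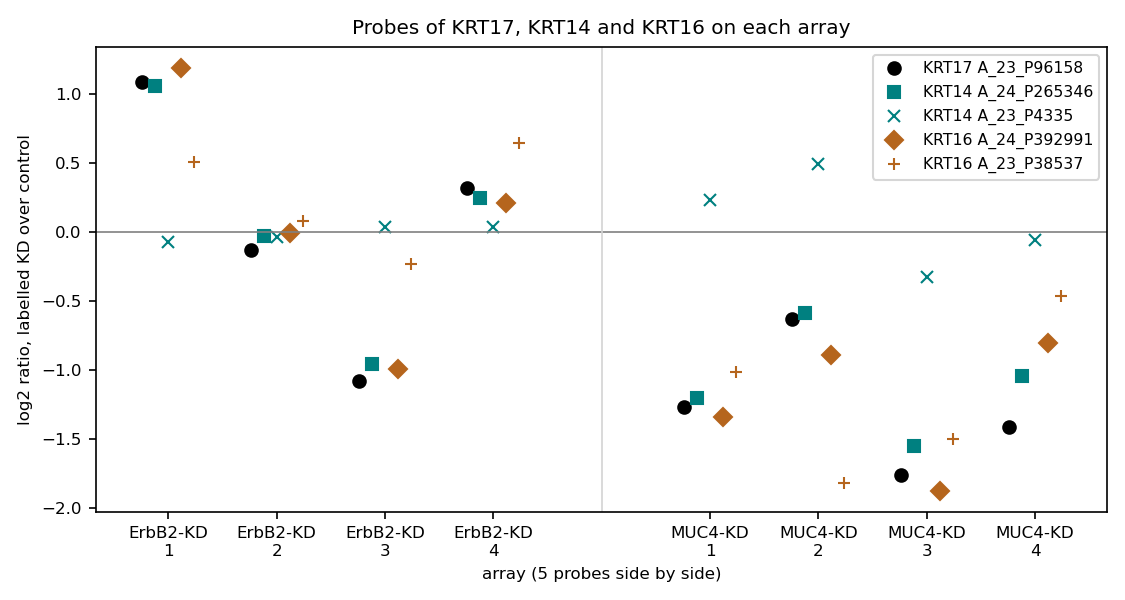
Log2 ratio of labelled knockdown over control on each of the 8 arrays for the KRT17 probe, 2 KRT14 probes and 2 KRT16 probes. The KRT17 probe, KRT14 A_24_P265346 and KRT16 A_24_P392991 move together, from 1.06 to 1.19 on ErbB2-KD array 1 to between -1.87 and -1.55 on MUC4-KD array 3, while KRT14 A_23_P4335 stays between -0.33 and 0.49.

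KRT7, KRT8 and KRT18 passed in neither experiment. KRT7, a type II keratin typical of ducts, had the smallest spread in ErbB2-KD, at -0.22, -0.07, 0.02 and -0.14 (-0.10 ± 0.10, SD, n = 4, limma adjusted p = 0.692). In MUC4-KD it was at 0.27, 0.24, -0.37 and 0.44 (0.15 ± 0.35, adjusted p = 0.520), with 1 array on the other side of 0.

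KRT8, the general type II keratin of simple epithelia, was higher on 4 of 4 ErbB2-KD arrays with both of its probes. The brighter probe gave 0.33, 1.27, 0.55 and 0.45 (0.65 ± 0.43, SD, n = 4, limma adjusted p = 0.150) and the other 0.04, 0.72, 0.68 and 0.56 (0.50 ± 0.31, adjusted p = 0.166). In MUC4-KD they gave 0.14 ± 0.27 and 0.13 ± 0.27 (adjusted p = 0.481 and 0.507).

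KRT18, the type I partner of KRT8, had ratios of both signs in both experiments, and their sign went with the dye. The brightest probe gave 0.25, 1.19, -0.10 and -0.68 in ErbB2-KD (0.16 ± 0.78, SD, n = 4, limma adjusted p = 0.831) and -1.14, -0.39, 0.10 and 1.54 in MUC4-KD (0.03 ± 1.13, adjusted p = 0.966). On 8 of 8 arrays the RNA in Cy5 was the brighter one, by a mean log2 ratio of Cy5 over Cy3 of 0.67 (range 0.10 to 1.54). A second KRT18 probe had Cy5 higher on 8 of 8 arrays (mean 0.78) and the third on 7 of 8 (mean 0.37), so the dye moved with all 3 probes and the knockdown ratio of KRT18 averaged over dyes was small beside it. The brightest KRT8 probe had Cy5 higher on 3 of 8 arrays (mean 0.01).

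As KRT8 and KRT18 form 1 filament pair and their genes overlap in the annotation, their ratios were set side by side. Over the 8 arrays the brightest probes of both correlated at r = 0.20, whereas the 3 KRT18 probes correlated among themselves at 0.87 to 0.94. A dye term in the fit left KRT18 without a call in both experiments.

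**Figure D5:**
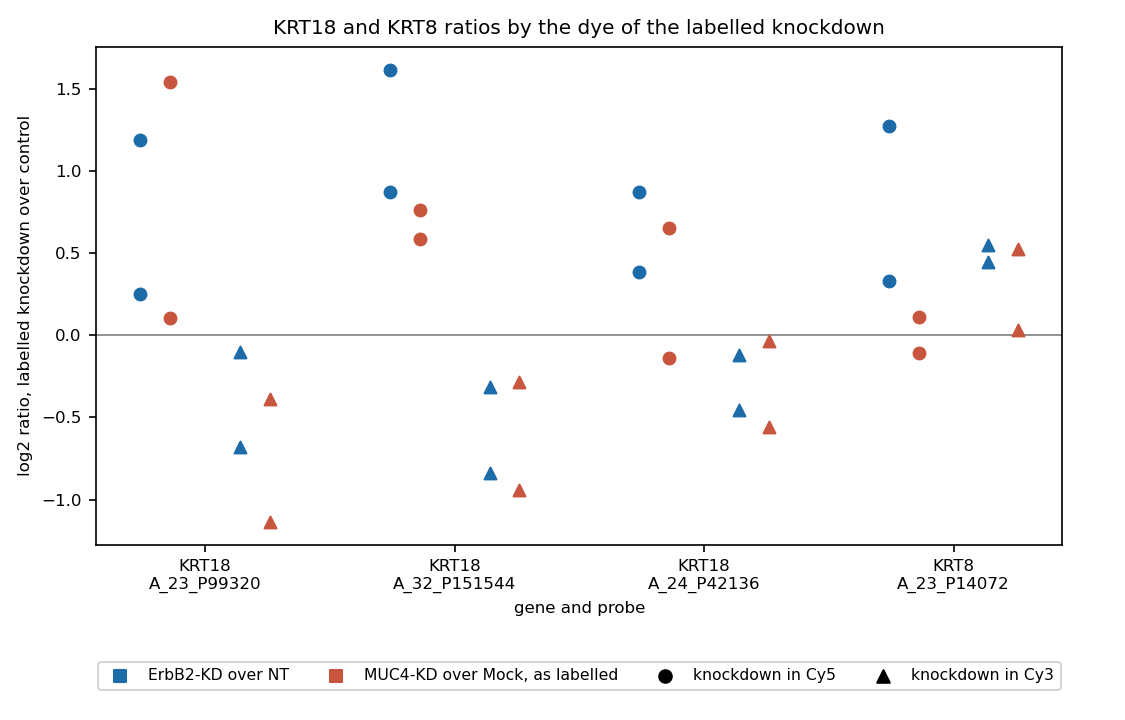
Log2 ratio of labelled knockdown over control on each array for 3 KRT18 probes and the brightest KRT8 probe; circles are arrays with the knockdown RNA in Cy5, triangles those with it in Cy3, and colours mark the experiment. For KRT18 A_23_P99320 and A_32_P151544 all circles lie above 0 and all triangles below, while KRT8 A_23_P14072 shows no such split.

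In signal, the simple epithelial keratins varied little among the 4 RNAs beside the hair keratins. The mean log2 normalized signal of KRT7 lay between 14.77 and 15.05, that of KRT18 between 16.82 and 16.98, that of KRT8 between 15.36 (NT) and 16.03 (MUC4-KD), and that of KRT19 between 16.51 (NT) and 17.68 (MUC4-KD). KRT15 was at 8.84 in Mock and 9.00 in NT, and at 9.93 in ErbB2-KD and 10.26 in MUC4-KD. As labelled, both knockdown RNAs thus stood above both pools. Had the MUC4-KD labels been crossed, the mean KRT15 ratios of both experiments would have opposite signs. KRT80 was at 12.75 to 13.01 in the other RNAs and at 13.64 in MUC4-KD.

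The difference between the knockdowns was tested for the 7 keratins over all 8 arrays, with 10.7% of all 23081 probes passing limma at an adjusted p under 0.05. None of the 7 passed by its brightest probe, and 2 had an unadjusted p under 0.05 (also 2 by the methods' t-test, with 0 after adjustment). KRT17 differed by -1.32 (SE 0.42, limma adjusted p = 0.0746), with -0.64, -1.28 and -1.84 within the 3 slides. KRT80 differed by 0.68 (SE 0.24, adjusted p = 0.0997), and by its dimmer probe by 2.10 (SE 0.43, adjusted p = 0.0186), with 2.81, 0.87 and 2.43 within slides. For KRT19 and KRT15, called in MUC4-KD and not in ErbB2-KD, the differences were 0.49 and 0.49 (adjusted p = 0.276 and 0.369), and slide 2 had the opposite sign from slides 1 and 3 for both.

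The rest of the keratin family was mostly too dim to be tested. For the counts of this list and those after it, the share of all probes that passed limma was 1.43% in ErbB2-KD and 20.5% in MUC4-KD. Of 45 keratin genes outside the 10, 41 were on the array, and 8 were tested in ErbB2-KD and 9 in MUC4-KD. In ErbB2-KD none passed limma (2 had an unadjusted p under 0.05), their median ratio being 0.06 against -0.01 over all probes. KRT10, a keratin of differentiating epidermis, had the lowest adjusted p there (0.66 ± 0.20, SD, n = 4, adjusted p = 0.0687). It was at 0.03 ± 0.37 in MUC4-KD (adjusted p = 0.922).

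In MUC4-KD 3 of the 9 passed, all lower, with a median of -0.09 against 0.01 over all probes: KRT14 and KRT16, described above, and KRT23. KRT23, a type I keratin, gave -2.58, -3.67, -2.89 and -1.49 (-2.66 ± 0.91, SD, n = 4, limma adjusted p = 0.00852), and was well above background in labelled MUC4-KD RNA on 2 of 4 arrays. It entered the test through the Mock pool, where it was higher. In ErbB2-KD it gave 4.68, 0.81, -0.04 and 1.91 and was not tested, since the probe exceeded background clearly on 3 arrays in ErbB2-KD and on none in NT. It was on average at least 3.42-fold higher there, a mean that rests mainly on array 1, while array 3 did not rise.

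The keratin-associated proteins, which cross-link hair keratins in the hair shaft, were represented by 36 genes. Testing was possible for 7 of them in ErbB2-KD and for 8 in MUC4-KD. None passed limma by its brightest probe in either experiment, with medians of -0.03 and -0.02 (0 at an unadjusted p under 0.05 in each). KRTAP2-4 had several probes that disagreed. The 2 assigned to one mRNA record were named through the study's lists of changed genes. They gave -2.37 ± 0.36 and -1.91 ± 0.48 in MUC4-KD (SD, n = 4). No p-value is given for these, since the lists that named the probes came from these same arrays. The brightest probe gave -0.15 ± 0.10 there (adjusted p = 0.319), and the others -0.04 (not tested) and -0.255. In ErbB2-KD the probe that was at -2.37 in MUC4-KD gave 1.78, 5.10, 0.52 and 0.79, on average at least 4.04-fold higher (limma adjusted p = 0.232). NT was well above background on no array for this probe, and its mean rests mainly on array 2.

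Among the genes that anchor keratin filaments at desmosomes and hemidesmosomes, 15 of 20 were tested in each experiment. None passed limma in ErbB2-KD (median -0.10, with 5 at an unadjusted p under 0.05). In MUC4-KD only ITGA6, the alpha chain of the hemidesmosomal integrin, passed, at 1.08, 1.38, 1.19 and 0.89 (1.13 ± 0.21, SD, n = 4, adjusted p = 0.00603), with a median of 0.24 for the list.

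Among 14 transcription factors known to act on keratin genes, 9 were tested in ErbB2-KD and none passed limma (4 at an unadjusted p under 0.05). LEF1, a nuclear partner of beta-catenin that is active in hair matrix cells, was at 1.03, 2.15, 1.44 and 0.91 there (1.38 ± 0.56, SD, n = 4, adjusted p = 0.0502). In MUC4-KD, 11 were tested, and TP63 rose and LEF1 fell. TP63, a master regulator of stratified epithelia, gave 2.72, 3.00, 2.05 and 0.33 (2.03 ± 1.20, SD, n = 4, adjusted p = 0.0293) and was well above background in Mock on 3 of 4 arrays. It entered the test through the RNA labelled MUC4-KD, where it was higher.

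LEF1 was at -0.47 ± 0.19 in MUC4-KD (SD, n = 4, adjusted p = 0.0438), and so had opposite signs in the 2 experiments. GRHL3, a grainyhead factor of epidermal differentiation, was on average at least 2.40-fold lower (limma adjusted p = 0.0363). Its ratios were -1.69, -1.37, -1.96 and -0.12. It was well above background in labelled MUC4-KD RNA on no array and entered the test through the Mock pool, where it was higher. HOXC13, a homeobox factor that acts on hair keratin genes, was at 0.61 ± 0.42 in MUC4-KD (adjusted p = 0.0585) and -0.24 ± 0.69 in ErbB2-KD (adjusted p = 0.706). Neither value passed, and the ErbB2-KD arrays were split, with 2 of 4 higher.

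Markers of other cell types were read beside these results. Of 11 squamous and basal markers on the array, 4 were tested in ErbB2-KD with none passing limma (0 at an unadjusted p under 0.05), and 6 in MUC4-KD, with TP63 higher and KRT14 and KRT16 lower. KRT5, DSG3 and SPRR1B were well above background in no RNA. The summed signal of the 11, on a linear scale, was 2721 to 8988 in ErbB2-KD, 3760 to 4032 in NT, 5275 to 7011 in MUC4-KD and 5326 to 10298 in Mock, which overlapped within both experiments. Of 9 fibroblast markers on the array 4 were tested. None passed limma in ErbB2-KD (1 at an unadjusted p under 0.05), and FAP (0.96 ± 0.30, SD, n = 4, limma adjusted p = 0.0130) and ACTA2 (0.57 ± 0.32, adjusted p = 0.0469) passed in MUC4-KD. Their summed signal was 4921 to 5973 in MUC4-KD and 3280 to 4431 in Mock without overlap, and DCN and PDGFRB were well above background in no RNA. The part of these markers in the keratin values was not tested.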

How the data were processed

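The authors hybridised amplified RNA to Agilent 2-colour arrays, scanned them, and deposited the Feature Extraction output (10.5 per the labels, 10.5.1.1 per the file headers). The deposited intensities are median spot and background intensity values of each channel, not normalized, as the scanner software of the authors extracted them. The deposited log10 ratio is Cy5 over Cy3 after the background subtraction and dye normalization of that software. A deposited value table of log10 ratios equalled these, turned to knockdown over control, within 4.99e-06, and was not used further. The authors then used GeneSpring. The files also give a p-value for each log10 ratio, which was not used.

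The intensities were background-corrected (normexp, offset 50) and loess-normalized within arrays using limma 3.58.1 in R 4.3.3, and spots of a probe were averaged. Of 41000 probes, 25398 were named through their accession in the GRCh38.p14 gene table and 192, KRT86 among them, through the symbols in the supplementary gene lists; 15410 have no name here. Testing required a probe to be well above background in the knockdown, or in the control, on each of the 4 arrays. Mean log2 ratios were tested with lmFit and eBayes against 0, and the difference between the knockdowns over all 8 arrays, with Benjamini-Hochberg adjustment over all probes tested. The smallest p that an exact sign-flip test of 4 arrays allows is 0.125. Signals were normalized between arrays by Aquantile. Replicates are clones by the methods, and the number of arrays limits the precision. Steps were tested on simulated data.

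The members and gene lists were chosen with earlier results of these data known. Named were every member, list genes that passed (up to 5 a list), ERBB2, MUC4 and the 5 genes nearest to KRT81. KRT10, HOXC13, the KRTAP2-4 probes and LEF1 in ErbB2-KD were named after their values were seen, as were KRT85 and IGFBP6. A gene's value is that of its brightest probe. The alternatives tried were median centring, the log ratios that Feature Extraction computed, an offset of 10 in normexp, other filters on dim probes, a dye term, the slide or the replicate number as a block, an intensity trend with robust eBayes, 1 fit of all arrays, the methods' t-test, the mean of a gene's probes, MUC4-KD arrays averaged in pairs of opposite dye, the MUC4-KD sign turned, and leaving out each array. Probe sequences were not used here.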

Additional observations from a re-analysis of the deposited data

Results flagged for a closer look

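The 3 hair keratins were picked out because every ErbB2-KD array had moved one way and every MUC4-KD array, as labelled, the opposite way. Labelled MUC4-KD minus ErbB2-KD came to -6.003 for KRT81, -5.412 for KRT86 and -2.784 for KRT83. The difference was not tested, since KRT81 and KRT86 had been chosen by it and KRT83 is their close relative. In 28 pairs of probe and experiment, 0 had a lone array far from the other 3.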

How the results depend on the processing

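In each experiment the 3 hair keratins kept their sign under the alternatives that could be computed, other than turning the MUC4-KD sign. KRT83 gave no ErbB2-KD value with the filter in both channels. The count of the 7 tested keratins called in ErbB2-KD went from 0 to 1 with a normexp offset of 10 and, leaving out each array, lay between 0 and 1. In MUC4-KD it went from 4 to 0 with median centring, 2 without the filter on dim probes and 0 with the methods' t-test, and lay between 0 and 4 leaving out each array. For the difference it went from 0 to 4 with the MUC4-KD sign turned, 1 with the mean of a gene's probes, and 0 to 1 leaving out each array (1 without ErbB2-KD array 3, where KRT17 passed). The cause was not tested.

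The other keratins called in ErbB2-KD went from 0 to 1 in 1 fit over all 8 arrays, with or without the slide as a random block (the block was chosen after seeing the data). In MUC4-KD their count went from 3 to 0 with median centring and with the methods' t-test. It was 2 with the filter in both channels and with the mean of a gene's probes, and lay between 0 and 3 leaving out each array.

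Among means near 0, leaving out an array turned KRT17 in ErbB2-KD (-0.30 to 0.43), KRT18 in ErbB2-KD (-0.18 to 0.45), KRT18 in MUC4-KD (-0.48 to 0.42) and the difference for KRT18 (-0.64 to 0.25), which was 0.12 with median centring. With the MUC4-KD sign turned, the differences were -0.046 for KRT7, -1.55 for KRT19, -2.35 for KRT15, 1.22 for KRT17, -1.10 for KRT80, 0.085 for KRT81, 0.75 for KRT83 and 0.51 for KRT86.

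Replicate numbers did not pair the samples (deviations of same-numbered arrays correlated at -0.24 to -0.05). With the replicate block 0 of the 7 keratins passed for the difference, as without it, and 783 of all probes in place of 2479. Over all probes, calls ranged from 0 to 487 in ErbB2-KD and from 154 (without array 3) to 9347 (without array 4) in MUC4-KD when an array was left out. In MUC4-KD 5131 probes passed, against 1 with median centring and 106 with the methods' t-test. Signals near background limit KRT83 and KRT23, and 1 control pool per experiment limits all ratios.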

Other observations

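Other intermediate filament genes gave calls in labelled MUC4-KD RNA and none in ErbB2-KD (limma, 8 tested there with 3 at an unadjusted p under 0.05, and 9 in MUC4-KD, of 16). Among all probes tested, 20.5% passed in MUC4-KD and 1.43% in ErbB2-KD. LMNB1, which encodes lamin B1 of the nuclear envelope, was at 0.99, 1.37, 1.34 and 0.42 in MUC4-KD (1.03 ± 0.44, SD, n = 4, adjusted p = 0.0198). SYNC and SYNM, which encode syncoilin and synemin, were at 0.61 ± 0.36 and 0.56 ± 0.32 (SD, n = 4, adjusted p = 0.0468 and 0.0474). BFSP1, which encodes the lens protein filensin, was at -0.99 ± 0.45 (SD, n = 4, adjusted p = 0.0219). VIM, the mesenchymal vimentin gene, was at 0.94 ± 0.53 in ErbB2-KD (adjusted p = 0.104) and 0.22 ± 0.27 in MUC4-KD (adjusted p = 0.268). MUC4-KD array 4 had the smallest ratio of the 4 for each of the called genes.

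Of 10 ductal markers, 6 were tested in ErbB2-KD and 7 in MUC4-KD. TFF2, a trefoil peptide, was the only one to pass limma in either experiment, at 2.27, 2.02, 2.00 and 0.14 in MUC4-KD (1.61 ± 0.98, SD, n = 4, adjusted p = 0.0327), with Mock well above background on 3 of 4 arrays. It entered the test through the RNA labelled MUC4-KD, where it was higher.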
